A study of Mus musculus with 6 samples.

Results

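The genes described here encode 10 transcription regulators that steer CD8+ T cells, the killer lymphocytes of the immune system, towards effector or memory fates. They were taken by gene symbol from a table of 41095 genes, in which each of the 10 had 1 row. Tbx21 and Eomes encode the T-box factors T-bet and eomesodermin, Id2 and Id3 encode inhibitors of E proteins, Prdm1 and Bcl6 encode the repressors Blimp-1 and BCL6, and Zeb2, Bhlhe40, Hopx and Ikzf2 complete the set. RNA was sequenced from 6 libraries of wild-type mouse splenic CD8+ T cells. The 3 control libraries were labelled as untreated. The 3 acetate libraries were given acetate, a short-chain fatty acid, for 48 h. The labels write its dose with an odd unit, taken here to mean 5 mmol/L. Cells of both groups had been positively selected with magnetic beads and grown with IL-2 (30 U/mL) for 72 h. Their plates carried antibodies to CD3 (5 µg/mL) and CD28 (2 µg/mL) after 24 h of coating, which activate T cells through the antigen receptor and a costimulator. The labels give no mouse strain or age, and no time at which acetate was added. Nothing in them ties the libraries of a group to different mice or wells, so the p-values below reflect variation among these libraries, possibly only technical. The design text contrasts cells before and after acetate, so an effect of acetate and one of time in culture cannot be told apart from the labels alone.

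As background, an activated CD8+ T cell that meets strong inflammatory signals induces T-bet, which with Blimp-1, Id2 and Zeb2 favours short-lived killer cells. Eomes, Id3 and Bcl6 are associated with longer-lived memory cells. BCL6 and Blimp-1 oppose each other, as they repress each other's genes. Id2 and Id3 both bind E proteins, helix-loop-helix activators such as the product of Tcf3, and keep them off DNA.

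Promoters of the regulated genes are shown because several of the regulators studied here bind recognisable short motifs. RefSeq entries of build GRCm38.p6 were found for 8 of the 10 genes. The 250 bases before the most upstream listed start follow for the 2 genes that rose and for the 2 genes that fell and had an entry, 5′ to 3′ on the gene's strand, with matches to any of 8 motifs in capitals.

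Tbx21 at chr11:97115332-97115581: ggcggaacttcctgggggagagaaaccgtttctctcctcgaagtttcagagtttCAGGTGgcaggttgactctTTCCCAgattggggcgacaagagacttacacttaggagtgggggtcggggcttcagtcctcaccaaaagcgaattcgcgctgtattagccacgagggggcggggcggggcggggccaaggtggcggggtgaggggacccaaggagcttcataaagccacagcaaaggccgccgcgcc

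Id2 at chr12:25096093-25096342: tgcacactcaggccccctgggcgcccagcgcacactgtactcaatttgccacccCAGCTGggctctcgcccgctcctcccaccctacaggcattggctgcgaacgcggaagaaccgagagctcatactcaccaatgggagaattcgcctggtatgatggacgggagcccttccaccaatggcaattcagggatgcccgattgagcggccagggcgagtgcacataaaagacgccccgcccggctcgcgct

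Zeb2 at chr2:45117443-45117692: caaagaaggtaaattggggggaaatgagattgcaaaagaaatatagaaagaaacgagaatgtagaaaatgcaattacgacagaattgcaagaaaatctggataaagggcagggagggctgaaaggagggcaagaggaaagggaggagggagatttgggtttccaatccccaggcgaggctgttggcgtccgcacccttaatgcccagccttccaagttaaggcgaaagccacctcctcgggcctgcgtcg

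Hopx at chr5:77115124-77115373: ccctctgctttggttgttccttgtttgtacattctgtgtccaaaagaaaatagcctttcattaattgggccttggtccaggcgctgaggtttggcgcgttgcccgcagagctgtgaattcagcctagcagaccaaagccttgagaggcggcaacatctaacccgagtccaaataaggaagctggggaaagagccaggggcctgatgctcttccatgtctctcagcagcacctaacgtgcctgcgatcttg

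All 4 genes are on the minus strand. Both strands were searched for AGGTGTGA and GGTGTG of T-box factors, CACGTG of Bhlhe40, CAGGTG of Zeb factors, CANNTG as any E-box, GTGAAAG of Blimp-1, TGGGAA of Ikaros family factors and TTCNNNGAA, which BCL6 and STAT sites share. GGTGTG lies within AGGTGTGA, and CACGTG and CAGGTG are also counted as CANNTG. The Tbx21 window held 1 CAGGTG and 1 TGGGAA, here on the opposite strand as TTCCCA, while the Id2 window held 1 CANNTG. The Zeb2 and Hopx windows held none of these letters. Of 32851 promoter windows of the same length, 17.2% held CAGGTG, 21.6% TGGGAA and 66.2% CANNTG, so such matches are common and are given as a description only.

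The deposited values were FPKM, a read density that corrects for the length of the gene and the size of the library, and between 31098394 and 39140711 reads per library were recovered from them. Correlations of log2 values across genes ran from 0.9925 to 0.9934 within groups and from 0.9835 to 0.9858 between groups, so no library stood apart from its group. All 11 of 11 listed markers of CD8 T cells had a mean of at least 1 FPKM. Their summed level was 2077 to 2287 FPKM in control and 2177 to 2399 FPKM in acetate libraries. Of these markers, only Cd8a and Cd8b1 encode CD8 itself. Cd8a was at a mean of 308.4 FPKM in control and 352.1 FPKM in acetate libraries, against 0.641 and 0.944 FPKM for Cd4. Summed B cell markers were at 17.5 to 19.1 and 17.3 to 18.6 FPKM, nearly all of it Cd79b. In these bulk samples, fewer cells that express a gene and less RNA per cell cannot be told apart.

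Levels of the 10 factors spanned a wide range and had the same order in both groups. Bhlhe40, at a mean of 130.5 ± 3.67 FPKM in control libraries (SD, n = 3, as for all means below), was higher than 96.0% of the 9579 protein-coding genes tested, taking all 6 libraries. Id2, Hopx, Eomes, Tbx21, Id3 and Ikzf2 followed. Prdm1 and Zeb2 lay near the bottom, above 14.3% and 7.16% of coding genes, and Bcl6 was below the filter of a mean of 1 FPKM. Neighbours in the order were separated in every library of a group, except Hopx and Eomes, whose acetate values overlapped. FPKM depend on the gene length in the table, which was 2.18 times the longest GENCODE vM21 transcript for Zeb2 and 0.520 times that of Ikzf2. The order between genes is therefore only approximate. For a given gene, the ratio of mean FPKM between groups does not depend on its length. The change in log2(FPKM + 1) used below does, as does the filter, because a longer length lowers FPKM.

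**Figure D1:**
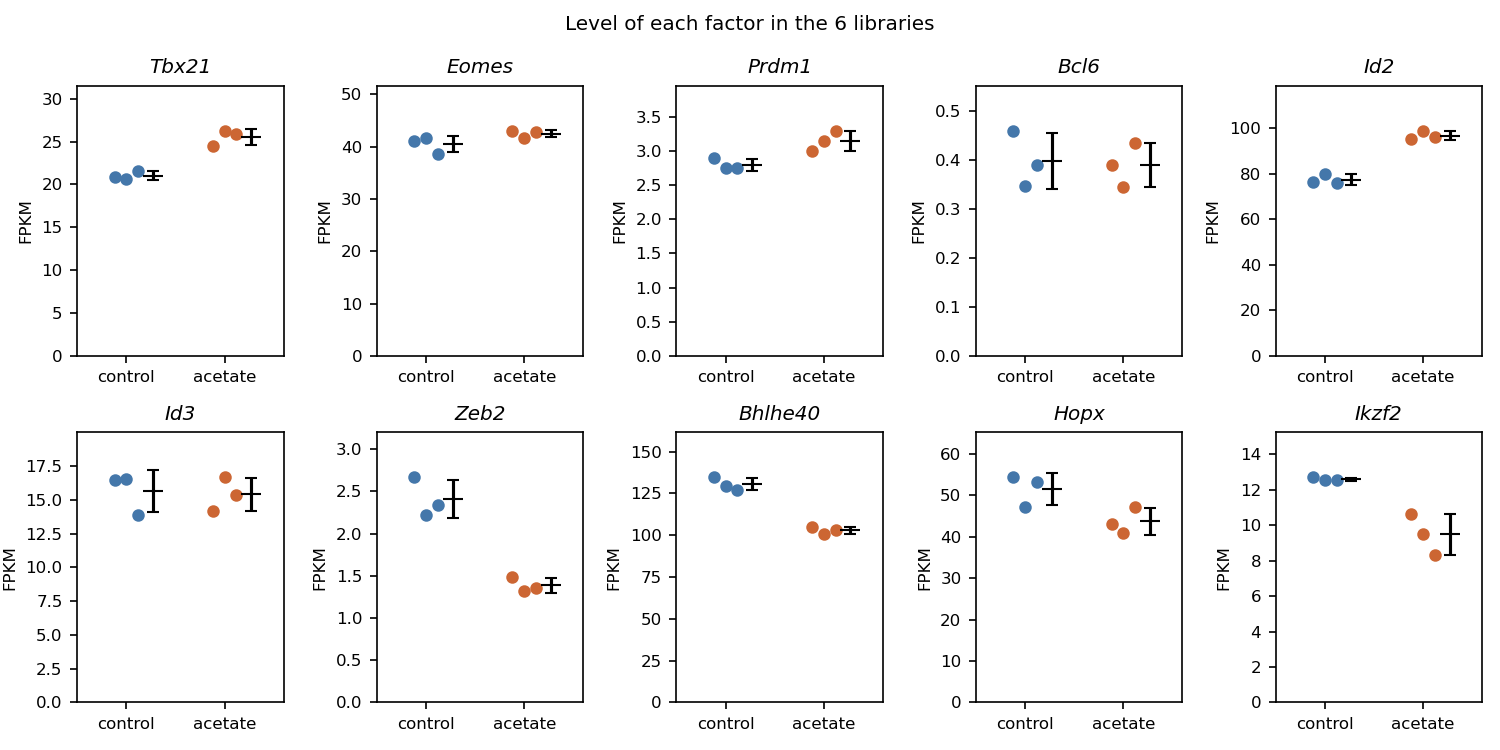
FPKM of the 10 factors (vertical axes from 0, a scale of its own per gene) in 3 control and 3 acetate libraries, with each point a library and the bar beside them the mean and SD. Zeb2, Bhlhe40 and Ikzf2 lie lower in all acetate libraries, Tbx21 and Id2 lie higher in all of them, and the Id3 and Bcl6 groups overlap.

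With acetate, 2 of the 9 tested factors rose, Tbx21 and Id2, and 4 fell, Zeb2, Ikzf2, Bhlhe40 and Hopx. Eomes, Prdm1 and Id3 did not pass the test, and Bcl6 was not tested. These calls were made with limma on log2(FPKM + 1) over all 10867 genes averaging 1 FPKM or more, at a Benjamini-Hochberg adjusted p below 0.05. Of all genes tested, 38.9% were called, 22.0% higher and 16.9% lower, so the 6 of 9 is to be read against a broad response. With a filter of 5 FPKM, 47.4% of 7665 genes and 5 of 7 factors were called. The 38.9% is therefore a low comparison for well-expressed genes, here and in the lists below. The groups of 3 did not overlap for 7 of the 9 tested factors, against 51.9% of all tested genes. The median absolute log2 change was 0.27 for the 9 factors and 0.15 for all tested genes, and the median signed change was -0.02 and 0.02. No change was as large as 2-fold in mean FPKM.

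**Figure D2:**
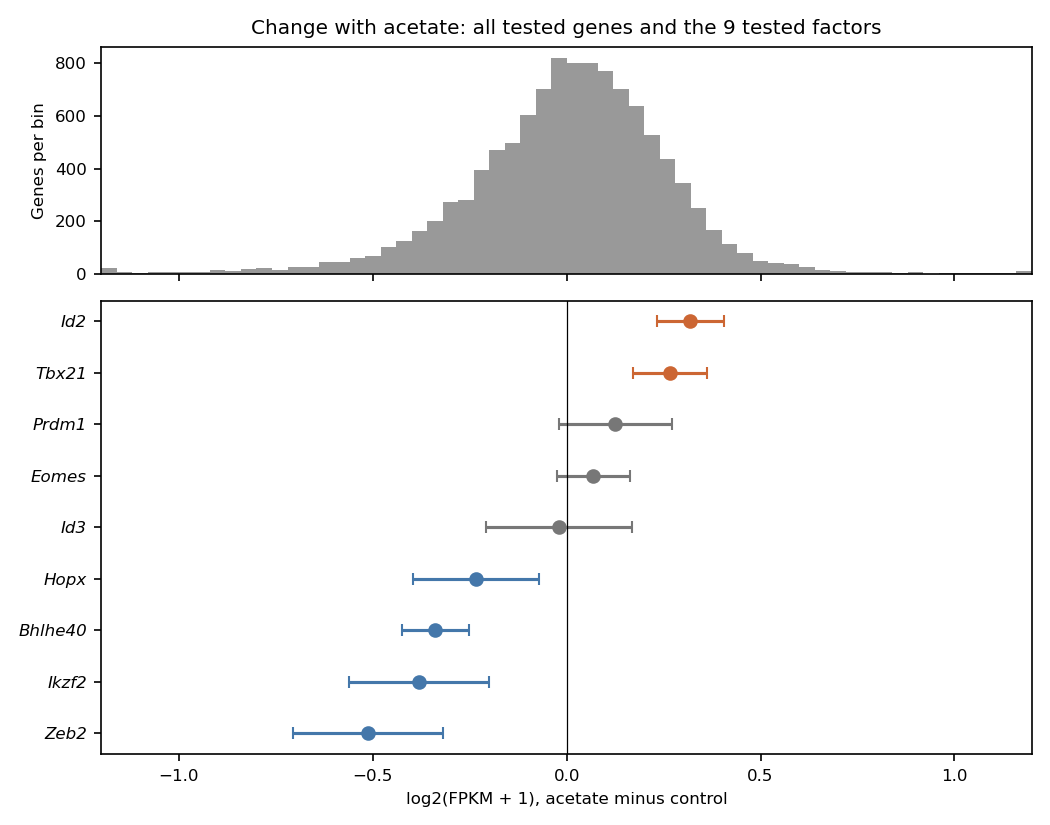
Upper panel, histogram of the change in log2(FPKM + 1), acetate minus control, for 10867 tested genes, with the outermost bins holding all genes beyond them; lower panel, the change of the 9 tested factors with the 95% interval of limma. Points for Id2 and Tbx21 (orange) lie above 0, those for Hopx, Bhlhe40, Ikzf2 and Zeb2 (blue) below 0, and the intervals of Prdm1, Eomes and Id3 (grey) cross 0.

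Of the T-box factors, Tbx21 rose and Eomes did not pass. Tbx21, which encodes the factor that activates interferon gamma and effector genes, is placed by the C57BL/6NJ annotation of the table, whose positions are used for all members, on chromosome 11 from 102563213 to 102586071. It was at 20.8, 20.7 and 21.6 FPKM in the control libraries and 24.4, 26.2 and 25.9 FPKM in the acetate libraries. Every acetate library was thus above every control library. Mean FPKM rose 1.21-fold, by 0.27 ± 0.04 on the log2 scale (SE; limma adjusted p = 0.00248).

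Eomes, whose product shares many binding sites with T-bet and supports memory cells, lies on chromosome 9 from 124468157 to 124476074. It was at 41.1, 41.6 and 38.7 FPKM in control and 43.0, 41.7 and 42.8 FPKM in acetate libraries. The acetate values all lay above the control values, but the closest pair differed by less than the spread within either group. The log2 change was 0.07 with a 95% interval of -0.02 to 0.16 (adjusted p = 0.209), and it was -0.01 after rescaling to TPM and with cyclic loess, so its direction depends on the scaling.

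A ratio of FPKM of the 2 T-box genes within a library does not move with library scaling. The tested log2 ratios have 1 FPKM added to each gene, so they can move with scaling and are compressed for low genes. The Tbx21 to Eomes ratio of FPKM was 0.506, 0.496 and 0.558 in control libraries and 0.568, 0.629 and 0.604 in acetate libraries. It was higher in all 3 acetate libraries, by 0.20 on the log2(FPKM + 1) scale (exact permutation test p = 0.1, the smallest that 3 against 3 can give). This exact test therefore cannot fall below 0.05 with 3 libraries a group. Each of the 5 pairs compared in this way had exact permutation p = 0.1, and an adjusted p of 0.1 over the 5.

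Of the Id genes, Id2 rose and Id3 did not pass. Id2, which supports effector cell survival by restraining E proteins, lies on chromosome 12 from 23515591 to 23517882. It was at 76.2, 80.0 and 75.8 FPKM in control and 95.3, 98.7 and 96.1 FPKM in acetate libraries. The lowest acetate library was far above the highest control library. The rise was 1.25-fold in mean FPKM, or 0.32 ± 0.04 on the log2 scale (limma adjusted p = 0.000797).

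Id3, its close relative linked to memory precursors, lies on chromosome 4 from 143590386 to 143592644. Values were 16.5, 16.6 and 13.9 FPKM in control and 14.2, 16.7 and 15.4 FPKM in acetate libraries. The groups overlapped almost entirely. The log2 change was -0.02 with a 95% interval of -0.21 to 0.17 (adjusted p = 0.872), and it turned positive, at 0.02 to 0.03, without control replicate 1 or 2 or acetate replicate 1. The Id2 to Id3 ratio of FPKM was 4.97 ± 0.438 in control and 6.29 ± 0.394 in acetate libraries, with no overlap between groups and a difference of 0.34 on the log2(FPKM + 1) scale (exact permutation p = 0.1).

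Neither of the mutually opposing repressor genes passed. Prdm1, whose product Blimp-1 drives terminal differentiation of effector T cells and plasma cells, lies on chromosome 10 from 44602582 to 44698699. It was at 2.89, 2.74 and 2.75 FPKM in control and 2.99, 3.14 and 3.29 FPKM in acetate libraries. All acetate values lay above all control values. The log2 change of 0.13 had a 95% interval of -0.02 to 0.27 (limma adjusted p = 0.147). The lowest adjusted p over 13 alternative settings was 0.062.

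Bcl6, needed by follicular helper T cells and memory precursors, lies on chromosome 16 from 22105576 to 22130646. It held 84 to 101 reads in control and 80 to 102 reads in acetate libraries. Its level was 0.459, 0.346 and 0.389 FPKM in control and 0.389, 0.345 and 0.434 FPKM in acetate libraries, with overlapping groups. Run without the filter, the log2 change was -0.01 with a 95% interval of -0.13 to 0.12 (adjusted p = 0.938), and at this depth the replicate spread of 11.5% to 14.2% of the mean was close to the 10.4% to 10.5% that counting error alone gives. The Prdm1 to Bcl6 ratio was 0.13 higher with acetate on the log2(FPKM + 1) scale (exact permutation p = 0.1), but its p was 0.3 with a pseudocount of 0.1 or none. The plain FPKM ratios overlapped, at 6.30, 7.92 and 7.07 in control and 7.69, 9.11 and 7.58 in acetate libraries.

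Zeb2 fell furthest of the 9. Its product, a zinc finger repressor that binds E-boxes and acts downstream of T-bet in terminal effector cells, is encoded on chromosome 2 from 45367130 to 45507531. It was at 2.67, 2.22 and 2.34 FPKM in control and 1.49, 1.32 and 1.36 FPKM in acetate libraries. The highest acetate library was well below the lowest control library. Mean FPKM was 1.74-fold lower, a fall on the log2(FPKM + 1) scale of -0.51 ± 0.08 (SE; limma adjusted p = 0.00298), which ranked 516 by size among the 10867 genes.

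The added 1 FPKM compresses the change of so low a gene. On recovered reads with voom, an alternative chosen after seeing the data, the log2 change was -0.83 (adjusted p = 1.78e-07), and with a pseudocount of 0.1 it was -0.75. Zeb2 is also expressed by myeloid and natural killer cells. Of 10 myeloid and dendritic markers 8 were in the table, 0 reached a mean of 1 FPKM, and Itgam and Siglech held no reads, but the summed level was 1.84 to 2.37 FPKM in control and 1.36 to 1.73 FPKM in acetate libraries. Of 10 natural killer cell markers 8 were in the table and 4 reached the filter, and their summed level was 33.2 to 35.2 FPKM in control and 23.6 to 26.1 FPKM in acetate libraries, most of it Klrd1, which activated CD8+ T cells also express. The defining natural killer gene Ncr1 held at most 6 reads in any library. The part of such cells in the fall of Zeb2 was not tested.

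Zeb1, the relative of Zeb2 linked to memory cells, also fell, from 7.15 ± 0.252 to 6.25 ± 0.186 FPKM (limma adjusted p = 0.027). The Zeb2 to Zeb1 ratio of FPKM was 0.377, 0.321 and 0.315 in control libraries and 0.231, 0.213 and 0.222 in acetate libraries. It was lower in every acetate library, by -0.34 on the log2(FPKM + 1) scale (exact permutation p = 0.1). The log2 difference was -0.56 with a pseudocount of 0.1 and -0.60 with none.

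Ikzf2 fell, as did 2 of the 3 Ikaros family relatives listed. Ikzf2 encodes Helios, a zinc finger protein known in regulatory T cells and in chronically stimulated CD8+ T cells, and lies on chromosome 1 from 72578173 to 72740157. It was at 12.7, 12.5 and 12.5 FPKM in control and 10.6, 9.49 and 8.30 FPKM in acetate libraries. The control libraries were nearly identical, with an SD of 0.742% of the mean, whereas the acetate libraries varied by 12.3%. All acetate values were nonetheless below all control values, a 1.33-fold difference in mean FPKM with a log2 change of -0.38 ± 0.08 (limma adjusted p = 0.00753). Of 5 CD4 and regulatory T cell markers, summed at 21.5 to 22.5 FPKM in control and 16.3 to 17.4 FPKM in acetate libraries, 2 reached the filter, and the fall was that of Zbtb7b (adjusted p = 9.89e-05). Cd4 itself was below the filter and went the other way, at 78 to 102 reads in control and 113 to 148 reads in acetate libraries. It did not pass when run without the filter (limma adjusted p = 0.148). Foxp3, which defines regulatory T cells, held at most 25 reads in any library.

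Ikzf1, which encodes Ikaros, fell from 89.9 ± 2.78 to 81.4 ± 1.17 FPKM (limma adjusted p = 0.0203) and Ikzf4, which encodes Eos, from 11.5 ± 1.33 to 9.20 ± 0.366 FPKM. Ikzf3, which encodes Aiolos, rose from 7.78 ± 0.436 to 9.15 ± 0.155 FPKM (adjusted p = 0.0142). The listed members thus moved in both directions. Ikzf1 overlaps Gm12000 and Gm11999 on the other strand, which held at most 188 and 264 reads in a library against 14240 or more for Ikzf1; strand handling is not stated.

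Bhlhe40, the most abundant factor, fell. It encodes a helix-loop-helix repressor induced by T cell activation that sustains cytokine production, and lies on chromosome 6 from 113850007 to 113856352. It was at 134.5, 129.6 and 127.3 FPKM in control and 105.0, 100.7 and 103.0 FPKM in acetate libraries. The groups were far apart relative to their spread. Its log2 change of -0.34 ± 0.04 (limma adjusted p = 0.000646), a 1.27-fold difference in mean FPKM, was the call of smallest p among the factors.

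T-bet and Bhlhe40 are both active in cytokine-producing T cells. The Bhlhe40 to Tbx21 ratio of FPKM was 6.46, 6.27 and 5.89 in control libraries and 4.30, 3.84 and 3.99 in acetate libraries. It was lower in every acetate library, by -0.61 on the log2(FPKM + 1) scale (exact permutation p = 0.1). Bhlhe40 was lower and Tbx21 higher in every acetate library than in any control library. Their ratio therefore had to separate the groups, and its test adds nothing to the calls of the single genes. Bhlhe41, the near relative of Bhlhe40, was below the filter, at 32 to 51 reads in control and 19 to 27 reads in acetate libraries, and did not pass without the filter (limma adjusted p = 0.13).

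**Figure D3:**
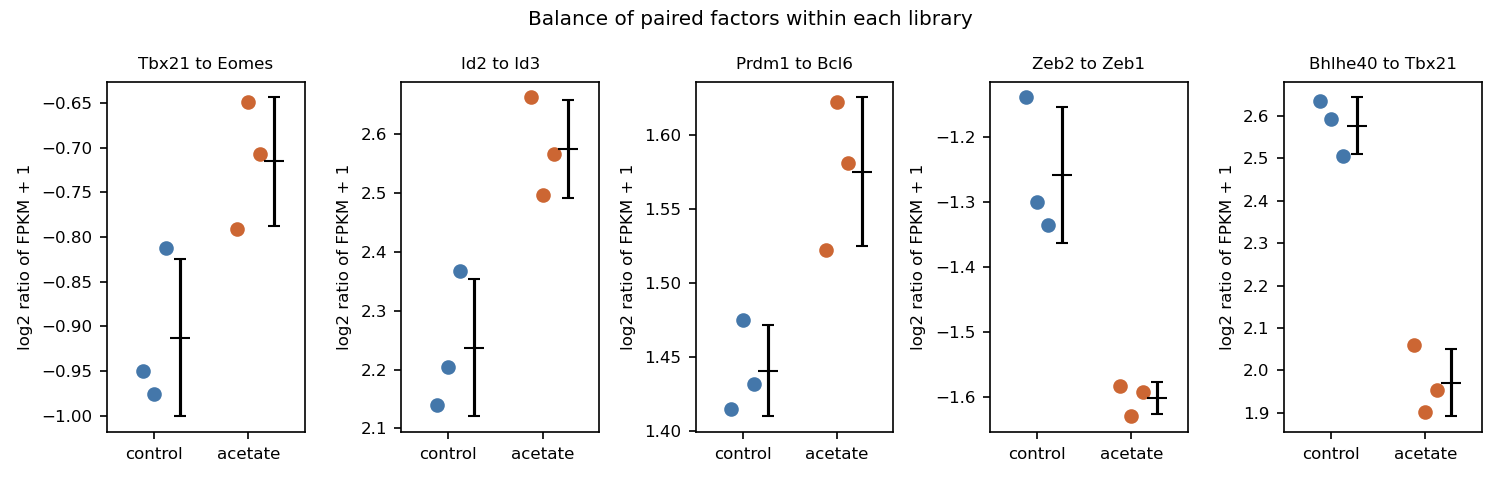
Log2 ratio of FPKM + 1 of 5 pairs of factors within each library, with each point a library and the bar beside them the mean and SD of 3; vertical axes do not start at 0. In each pair the control and acetate libraries do not overlap on this scale, but the plain FPKM ratios of Prdm1 to Bcl6 do. The widest gap is that of Bhlhe40 to Tbx21, where the mean moved from 2.58 to 1.97 as Bhlhe40 fell and Tbx21 rose.

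Hopx gave the weakest of the 6 calls. It encodes a small homeodomain protein that does not itself bind DNA and is found in differentiated effector T cells, and lies on chromosome 5 from 80401750 to 80437564. It was at 54.3, 47.2 and 53.3 FPKM in control and 43.0, 40.9 and 47.2 FPKM in acetate libraries. The lowest control and the highest acetate library overlapped. Mean FPKM fell by 15.3%, with a log2 change of -0.23 ± 0.07 (limma adjusted p = 0.0333). The call was lost without control replicate 1 (adjusted p = 0.102) or 3 (adjusted p = 0.0971), without acetate replicate 1 (adjusted p = 0.0791) or 2 (adjusted p = 0.106), and with no filter on low values (adjusted p = 0.102). Hopxos, on the other strand within the gene, held at most 98 reads in a library against 2091 or more for Hopx.

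**Figure D4:**
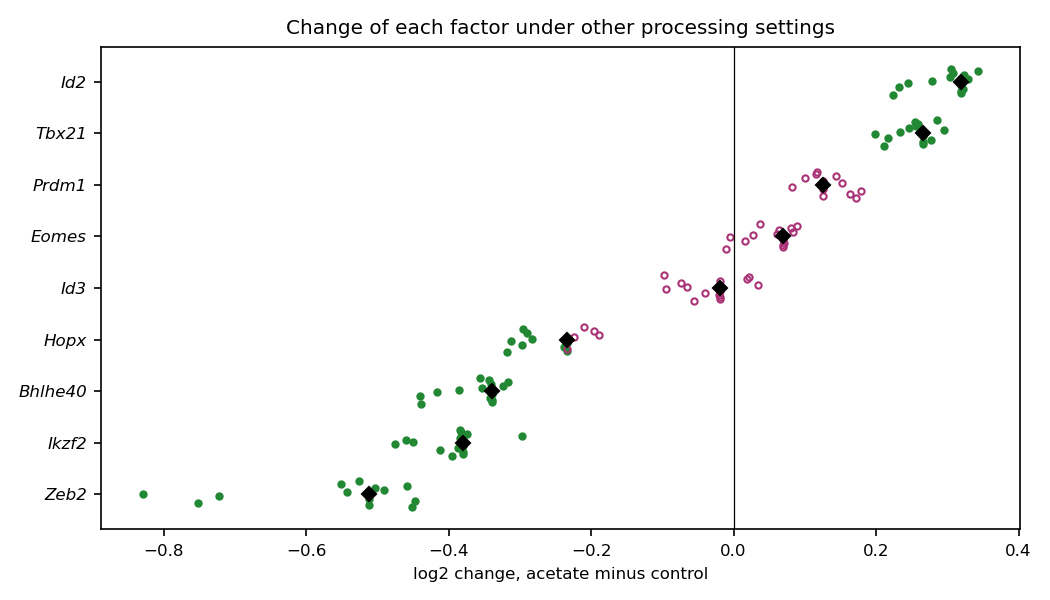
Log2 change of the 9 tested factors (acetate minus control) as reported, black diamonds, and under the other settings tried, circles that are filled green where the adjusted p was below 0.05 and open otherwise. Filled circles of Id2 and Tbx21 lie above 0 and those of Bhlhe40, Ikzf2 and Zeb2 below 0 throughout, 5 settings of Hopx are open, and Eomes and Id3 have settings on both sides of 0.

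Most tested relatives of the factors changed. Of 13 listed, 9 were tested, 3 rose, 5 fell and 1 did not pass, against 38.9% of all genes called. Zfp683, which encodes Hobit, a relative of Blimp-1 in tissue-resident cells, rose from 1.01 ± 0.0933 to 1.53 ± 0.179 FPKM (limma adjusted p = 0.0287). This gene held only 48 to 59 reads in control and 68 to 97 reads in acetate libraries. Run without the filter, Zfp683 (limma adjusted p = 0.0641), Zeb1 (adjusted p = 0.0546) and Ikzf4 (adjusted p = 0.0774) did not pass. Bach2, which encodes a repressor that holds back effector differentiation, fell from 18.3 ± 1.01 to 13.4 ± 1.04 FPKM. Tbx6, a T-box gene known from embryonic mesoderm, fell from 2.79 ± 0.518 to 1.19 ± 0.286 FPKM (adjusted p = 0.00333).

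The E proteins that Id2 and Id3 bind are encoded by Tcf3, Tcf12 and Tcf4. For Tcf3 and Tcf12, every acetate library was above every control library, though only Tcf3 passed the test. Tcf3, which encodes E2A, rose from 24.3 ± 1.23 to 28.3 ± 1.24 FPKM (limma adjusted p = 0.0142), and Tcf12, which encodes HEB, was at 6.56 ± 0.175 and 7.17 ± 0.255 FPKM without passing (adjusted p = 0.0983). Tcf4, which encodes E2-2, was below the filter, at 132 to 171 reads in control and 50 to 78 reads in acetate libraries, and was lower when run without the filter (adjusted p = 0.0189). Id1 was below the filter as well, with at most 20 reads in any library, and Bcl6b, the relative of Bcl6, was at 0.821 ± 0.0206 and 0.592 ± 0.0949 FPKM.

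Of 12 tested factors of naive and memory cells, which oppose effector fate, 6 fell, 1 rose and 5 did not pass, or 58.3% called against 38.9% of all tested genes. Lef1 fell from 18.8 ± 0.787 to 14.1 ± 0.326 FPKM (limma adjusted p = 0.000647) and Satb1, a chromatin organiser, from 12.5 ± 0.222 to 10.2 ± 0.105 FPKM. Of 17 other effector and exhaustion factors 10 fell and 2 rose, or 70.6% called against the same 38.9%. Nfil3, a basic leucine zipper factor, fell from 25.8 ± 1.62 to 16.2 ± 0.625 FPKM, Stat3 from 135.4 ± 1.10 to 108.8 ± 1.70 FPKM and Stat5b from 66.8 ± 0.802 to 56.3 ± 0.769 FPKM. The lists share genes, so their counts are not independent. Bach2, Zeb1, Tcf3, Tcf12 and Zfp683 were already counted among the relatives. Below, Bach2, Tcf7 and Myb recur among genes repressed by Blimp-1, and Il2rb and Il12rb2 are both receptors and reported T-box targets.

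Cytokine receptors that are known to induce these factors moved in both directions, with 3 of 13 tested genes higher and 4 lower, against 22.0% higher and 16.9% lower among all tested genes, so the share that rose was near the background. Il2rb, the receptor chain shared by IL-2 and IL-15, rose from 218.3 ± 5.54 to 258.7 ± 1.82 FPKM (limma adjusted p = 0.00207). Il18r1, an IL-18 receptor chain, fell from 11.1 ± 0.625 to 6.89 ± 0.454 FPKM. Il12rb2, a chain of the IL-12 receptor that signals through STAT4 to Tbx21, fell from 54.9 ± 1.32 to 46.3 ± 2.76 FPKM (adjusted p = 0.00747).

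Reported targets of T-bet and Eomes moved in both directions. Of 13 tested, Zeb2 among them, 4 rose, 5 fell and 4 did not pass, or 69.2% called against 38.9% of all tested genes, with a median log2 change of 0.00 against 0.02 for all tested genes. Cxcr3, a chemokine receptor and a T-bet target, fell from 24.3 ± 1.35 to 18.7 ± 0.854 FPKM (limma adjusted p = 0.00211), beside the fall of Gzma, which encodes granzyme A, and the rise of Il2rb. Markers of terminal effector cells were hardly detected, with at most 16 reads of Klrg1 and 9 of Cx3cr1 in any library.

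Genes reported to be repressed by Blimp-1 also moved both ways. Of 11 tested, 5 fell, 2 rose and 4 did not pass, with Id3 among the last, or 63.6% called against 38.9% of all tested genes, and the share that rose was near the 22.0% of all genes. Cxcr5, a receptor of follicular T cells, fell from 39.9 ± 0.892 to 28.5 ± 0.421 FPKM (limma adjusted p = 0.000174), Il7r fell (adjusted p = 0.000225) and Myc rose (adjusted p = 0.00105).

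**Figure D5:**
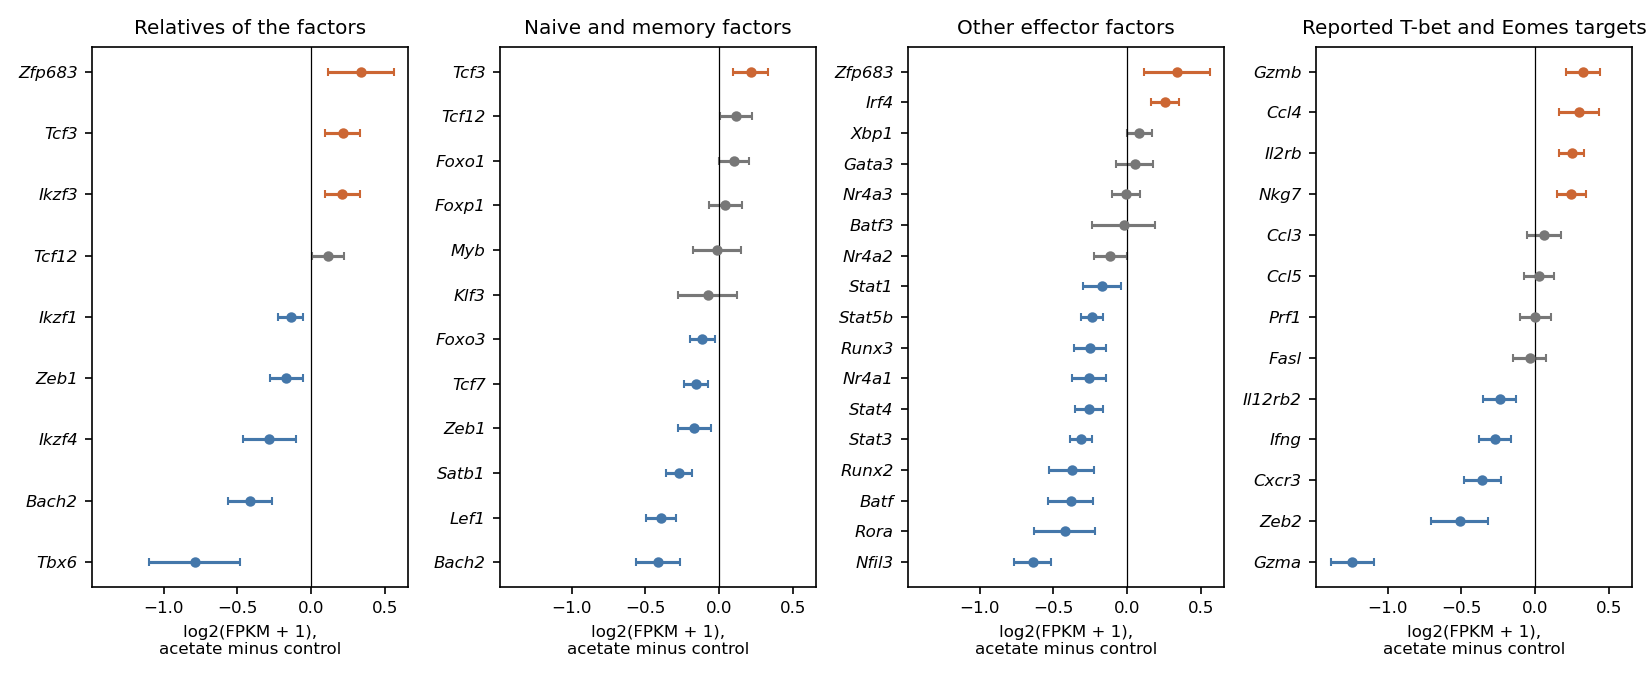
Change in log2(FPKM + 1), acetate minus control, with the 95% interval of limma, for the tested genes of 4 lists, coloured orange where they rose, blue where they fell and grey where they did not pass. Each list holds genes on both sides of 0, with 4 rises and 5 falls among the reported T-bet and Eomes targets.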

How the data were processed

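The authors deposited FPKM for RNA sequencing of 3 control and 3 acetate libraries. Per the submitters' processing notes, cutadapt 1.18, HISAT2 2.1.0 and the build mm10 were used; how reads were counted, stranded or not, is not stated there. The identifiers and positions in the file are those of the C57BL/6NJ strain, and the gene length column, in bases, is one of the other values deposited. Groups and numbers came from sample titles. Reads were recovered from FPKM and gene length, giving whole numbers for 100% of values (tolerance 0.01 reads); ends of a pair may be counted separately. Genes averaging 1 FPKM or more were compared as log2(FPKM + 1) with limma 3.58.1 (R 4.3.3, trend on abundance, two-sided, Benjamini-Hochberg, threshold 0.05), which was tested on simulated data. Intervals are at 95%. Ratios of genes were compared by exact two-sided permutation. Count tests other than voom on recovered reads were not run, because the deposited unit is FPKM. The members and lists were chosen with earlier results of these data known. Named genes were all members, relatives of the members, and in each remaining list up to 3 called genes of lowest p; genes outside this were named after their values were seen. Same-numbered libraries did not deviate together over all tested genes (see the closing part on processing).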

Additional observations from a re-analysis of the deposited data

How the results depend on the processing

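The count of 6 called factors was 5 or 6 under the 14 alternatives, always with 2 higher, and was 5 to 6 when single libraries were left out. Over all genes, 4229 calls became 3068 to 3988 without single libraries. Among the 14, Tbx21 had log2 changes of 0.20 to 0.30, Id2 of 0.22 to 0.34, Bhlhe40 of -0.44 to -0.32 and Ikzf2 of -0.48 to -0.30, all past the threshold, and so was Zeb2 under the 13 that tested it. Higher genes were 56.6% of all calls as deposited, 35.2% after rescaling to TPM and 45% with voom on recovered reads, added after seeing the data, while the 6 factors kept their direction under both. Over all tested genes, same-numbered libraries correlated in their deviations at -0.0537, 0.0258 and -0.0389, so no pairing was seen across genes. With 3 libraries a group, this cannot show whether some genes shared a batch. With the replicate block 3600 genes and 6 factors were called. The ratios kept their direction under every alternative, with exact sign-flip p = 0.25, the smallest possible, under the replicate block. edgeR and DESeq2 were not run. Depth limits Bcl6, at about 90 reads a library.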

Other observations

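Corepressors through which BCL6, Blimp-1 and related factors act were called about as often as other genes, at 38.5% of 13 tested against 38.9% of all tested genes. In limma 5 rose, 0 fell and 8 did not pass, against 22.0% higher and 16.9% lower among all tested genes. The similar total thus hides that all calls in this list were rises. Prmt5, an arginine methyltransferase that binds Blimp-1, rose from 41.3 ± 0.604 to 48.5 ± 0.675 FPKM (SD, n = 3; limma adjusted p = 0.00191). Sin3a, a scaffold of deacetylase complexes, rose from 22.3 ± 0.448 to 26.5 ± 0.564 FPKM, and the deacetylase gene Hdac2 rose from 37.2 ± 0.522 to 44.2 ± 1.48 FPKM. The corepressor genes Ncor1 and Bcor, which BCL6 recruits, were at 33.7 ± 1.09 and 33.0 ± 1.77 FPKM and at 20.3 ± 0.106 and 20.8 ± 0.734 FPKM in control and acetate libraries, and did not pass.

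Klf2, which encodes a quiescence factor of naive T cells and was named after its values were seen, lay below the filter with 20 to 30 reads in control and 65 to 88 reads in acetate libraries, from 0.392 ± 0.0816 to 1.22 ± 0.135 FPKM, and passed when run without the filter (limma adjusted p = 0.00523).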
